A study of Mus musculus with 479 samples.

Results

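The genes described here are 10 markers of T cells and natural killer (NK) cells, taken by name: Cd3e, Cd3g, Cd4, Cd8a, Gzma, Prf1, Nkg7, Klrb1c, Ccl5 and Il2rb. All 10 were found among the 24475 gene identifiers of each table. They were followed in a poly(A) RNA-seq study of 2 mouse lines. Heterozygotes (Het) carried 1 targeted copy of Dchs1 or of Fat4, and each line had its own wild-type (WT) libraries for comparison. Dchs1 and Fat4 are giant cadherins that bind one another between neighbouring cells. Both lines were VelociGene alleles on C57BL/6NTac, the labels name no promoter or cell type that would limit the targeting, and every Het keeps an intact second copy. The 16 groups were Dchs1 Het and WT and Fat4 Het and WT, each in heart, kidney, liver and lung, with 30 libraries in every group except Dchs1 Het liver, which had 29, for 479 libraries in all. Age, sex, litter and batch are not given in the labels, and nothing says whether each library is an animal of its own, so every p-value here speaks to variation among libraries and no further.

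T cells recognise peptides through a receptor that signals by way of the CD3 chains, of which Cd3e encodes epsilon and Cd3g encodes gamma. Cd4 and Cd8a encode the coreceptors that divide T cells into helper and cytotoxic classes, although Cd4 is also made by some myeloid cells. Cytotoxic T cells and NK cells kill with granules: Prf1 encodes perforin, which opens the target's membrane, Gzma encodes the protease granzyme A, which enters through it, and Nkg7 encodes a granule membrane protein needed for their release. Klrb1c encodes the NK1.1 receptor that defines NK cells in C57BL/6 mice. Ccl5 encodes the chemokine RANTES, made by activated T cells and NK cells and stored in platelets, and Il2rb encodes the beta chain shared by the receptors for interleukin 2 and interleukin 15, the cytokine on which NK cells depend. In the lung these cells reside in the tissue and also pass through its dense capillary bed. In RNA from whole tissue, fewer cells of a type and less RNA per cell cannot be told apart.

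The markers lie at 10 loci of GRCm38.p6. Cd3g (chr9:44969572-44980431) and Cd3e (chr9:44998735-45009663) lie close together, Cd4, Cd8a and Klrb1c share chromosome 6 at separate positions, and Gzma, Prf1, Ccl5 and Il2rb lie on chromosomes 13, 10, 11 and 15. Nkg7 (chr7:43437138-43438246) is on the chromosome that also carries Dchs1 (chr7:105752989-105788355).

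Promoter windows of 300 bases around each gene start were taken from the RefSeq table for GRCm38.p6, which held 7 of the 10 markers; Cd4, Ccl5 and Il2rb had no entry. Windows were searched on both strands for the letters TGTGGT, bound by RUNX factors, AGGAAG, bound by ETS factors, and TCACACC, bound by the T-box factors of cytotoxic lymphocytes. The RUNX letters were in 4 of the 7 windows, those of Gzma, Prf1, Nkg7 and Klrb1c, and in 16.8% of all 32851 windows. The ETS letters were in 4, those of Cd3e, Prf1, Nkg7 and Klrb1c, and in 35.4% of all windows. The T-box letters were in 1, that of Nkg7, and in 3.98% of all windows. A match describes the letters and is no evidence of binding. The 4 windows with RUNX letters are printed because they belong to the 3 granule genes and the NK receptor. They are written 5′ to 3′ on the gene's own strand, with every match in capitals: Gzma at chr13:113100932-113101231 (minus strand), Prf1 at chr10:61297586-61297885 (plus strand), Nkg7 at chr7:43436888-43437187 (plus strand) and Klrb1c at chr6:128788592-128788891 (minus strand).
Gzma: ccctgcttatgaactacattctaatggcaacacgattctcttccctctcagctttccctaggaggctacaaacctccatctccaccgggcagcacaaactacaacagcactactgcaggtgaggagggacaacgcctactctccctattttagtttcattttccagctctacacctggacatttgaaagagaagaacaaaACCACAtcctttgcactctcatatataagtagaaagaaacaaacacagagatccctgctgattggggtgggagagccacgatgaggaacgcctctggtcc
Prf1: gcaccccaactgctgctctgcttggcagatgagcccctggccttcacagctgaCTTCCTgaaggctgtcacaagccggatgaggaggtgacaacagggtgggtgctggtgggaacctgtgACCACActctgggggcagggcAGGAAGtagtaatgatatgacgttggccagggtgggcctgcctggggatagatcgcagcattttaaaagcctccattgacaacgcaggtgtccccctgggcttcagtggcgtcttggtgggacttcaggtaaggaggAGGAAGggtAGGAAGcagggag
Nkg7: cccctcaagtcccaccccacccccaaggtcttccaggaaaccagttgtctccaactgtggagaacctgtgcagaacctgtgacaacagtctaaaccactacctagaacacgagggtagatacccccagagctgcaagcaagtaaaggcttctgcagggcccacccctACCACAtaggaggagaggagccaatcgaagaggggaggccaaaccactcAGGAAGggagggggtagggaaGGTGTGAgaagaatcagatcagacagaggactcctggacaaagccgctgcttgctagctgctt
Klrb1c: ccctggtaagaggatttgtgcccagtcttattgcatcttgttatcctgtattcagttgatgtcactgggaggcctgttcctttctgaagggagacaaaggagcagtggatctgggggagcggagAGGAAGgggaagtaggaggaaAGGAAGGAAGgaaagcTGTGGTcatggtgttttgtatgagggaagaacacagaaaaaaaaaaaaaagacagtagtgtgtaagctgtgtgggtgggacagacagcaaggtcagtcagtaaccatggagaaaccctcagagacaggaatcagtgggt
Gzma held 1 RUNX match, Prf1 held 1 RUNX and 4 ETS matches, and Nkg7 held 1 match of each kind. Klrb1c held 1 RUNX match and 3 ETS matches, and 2 of its bases fell in overlapping matches.

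Depth, as reads assigned to genes, lay between 10720364 and 32282525 a library (median 18978025). In lung it ran from 10835124 to 18740227 in Dchs1 Het and from 11086182 to 19485877 in Dchs1 WT. Het and WT lungs of this line were thus of like depth. Fat4 lungs were deeper, with medians of 20925445 in Het and 21681366 in WT, against 15272729 and 14987093 in Dchs1 Het and WT lungs. The targeted gene was lower in Het in each of the 8 comparisons, Dchs1 by a log2 fold change between -1.24 (lung) and -1.10 (heart) and Fat4 between -1.07 (kidney) and -0.95 (heart). Each tissue was checked with 5 defining genes. Those of lung, a surfactant and epithelial set, summed to group medians between 132793 and 151972 TPM in lung. Their group medians in heart, kidney and liver were at most 2.02 TPM. Single libraries went higher, with lung-defining genes up to 907 TPM in a Fat4 WT heart and 426 TPM in a Dchs1 WT heart. Kidney-defining genes reached 93.2 TPM in a Dchs1 WT liver and 13.5 TPM in a Fat4 WT liver. Heart-defining genes reached 39.8 TPM in a Fat4 Het kidney. In lung they were present throughout, with group medians of 232 TPM in Dchs1 Het, 325 TPM in Dchs1 WT, 301 TPM in Fat4 Het and 335 TPM in Fat4 WT. Of 4 tested in Dchs1 lung 1 was lower in Het, Actc1 at -0.62 ± 0.110. Liver-defining genes had group medians between 1157 TPM (Dchs1 Het) and 1641 TPM (Fat4 Het) in kidney. The part of this signal in the markers' values was not tested. A few libraries correlated poorly with the rest of their comparison, namely 3 Het and 1 WT in Dchs1 lung, 1 WT in Fat4 heart, 1 Het and 3 WT in Fat4 liver and 1 Het in Fat4 lung.

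Across wild-type tissues, the markers were highest in lung. Levels are given as TPM, a share of the library's transcripts corrected for transcript length. In Dchs1 WT lung, Gzma had the highest median at 39.1 TPM and Ccl5 followed at 29.1 TPM. Cd3g and Nkg7 came next at 9.83 and 9.82 TPM. Cd3e at 4.69 TPM, Il2rb at 4.29 TPM and Klrb1c at 3.58 TPM formed the middle of the order. Cd4 at 2.44 TPM, Prf1 at 2.42 TPM and Cd8a at 2.21 TPM were lowest, and the ranges of these 3 overlapped. The leading pair and the trailing 3 were the same in Fat4 WT lung, where Gzma had a median of 33.2 TPM, Ccl5 28.0 TPM, Cd3g 9.52 TPM, Nkg7 8.92 TPM, Il2rb 5.18 TPM, Cd3e 5.06 TPM, Klrb1c 3.44 TPM, Prf1 2.83 TPM, Cd4 2.66 TPM and Cd8a 2.32 TPM. Granzyme A transcripts were thus more abundant per length than those of perforin, its partner in the same granules. Neighbours in this order lay within each other's spread: Gzma ran from 5.99 to 63.7 TPM and Ccl5 from 8.67 to 49.2 TPM in Dchs1 WT lung.

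**Figure D1:**
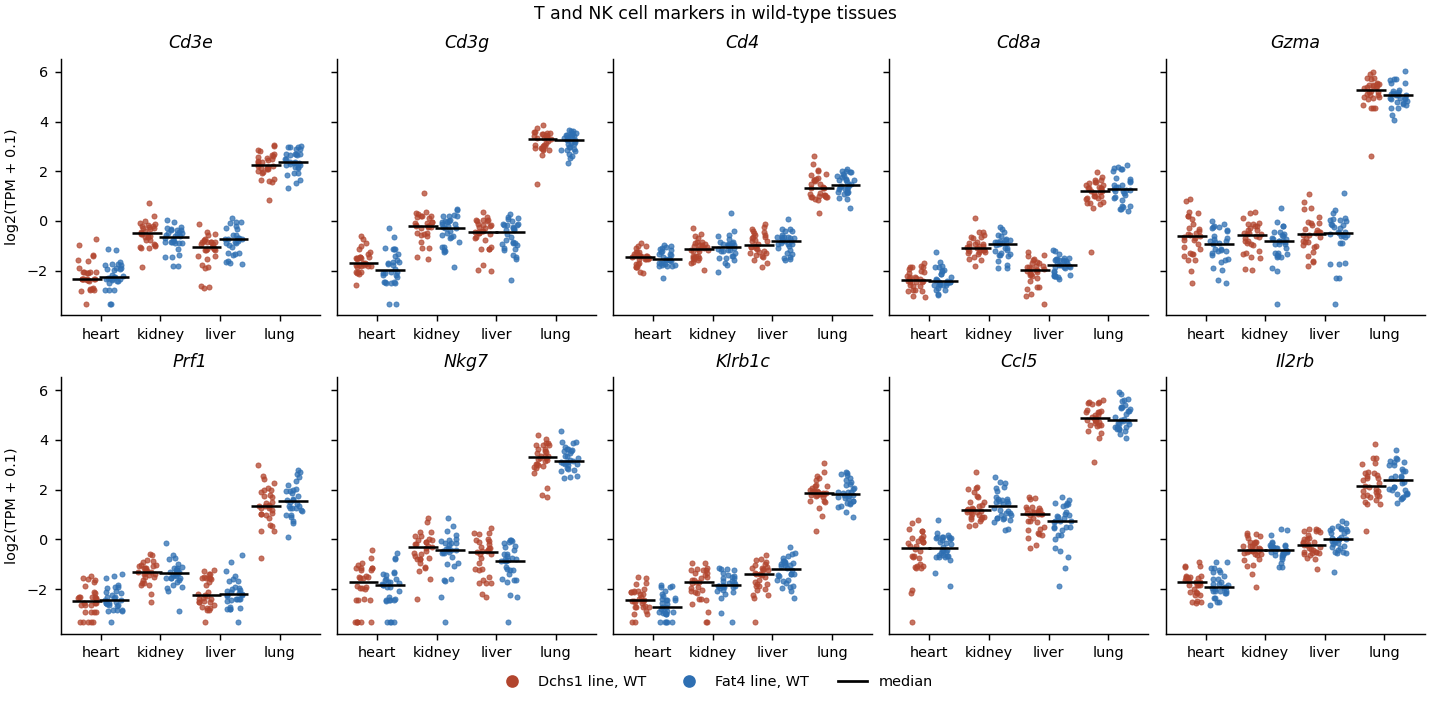
Level of each marker in wild-type heart, kidney, liver and lung, as log2(TPM + 0.1), with 1 point per library, the Dchs1 line in red, the Fat4 line in blue and a black bar at each median. Lung stands above the other tissues for all 10 markers, with the widest gap for Gzma.

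How far lung exceeded the next tissue differed between the markers. Gzma, the granzyme, had a lung median 65.3 times that of the next tissue in Dchs1 mice and 53.4 times in Fat4 mice. Ccl5, Nkg7, Cd3g and Klrb1c followed with ratios between 10.2 and 14.0. Both coreceptors and Il2rb had the smallest ratios, with Cd4 at 5.91 in Dchs1 mice and 5.61 in Fat4 mice, Cd8a at 5.87 and 5.36, and Il2rb at 5.72 and 5.71. For all 10 markers of the Fat4 line every lung library lay above every library of the other 3 tissues. In the Dchs1 line this held for 7 markers, and for Cd8a, Prf1 and Il2rb a single lung library fell within the range of kidney or liver. By edgeR's quasi-likelihood test all 10 markers were higher in lung than in heart, kidney and liver in both lines, with adjusted p of at most 3.42e-15. Of all genes tested, 50.5% were higher in lung than in heart, 46.2% than in kidney and 49.4% than in liver in the Dchs1 line, and 50.8%, 46.6% and 49.3% in the Fat4 line.

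Outside lung the markers were low. In heart, the tissue with the lowest median for each of the 10, the Dchs1 WT medians ran from 0.0798 TPM (Prf1) to 0.693 TPM (Ccl5), and the typical library held 2 reads of Cd3e and 12 of Cd4. In Dchs1 WT kidney the medians ran from 0.205 TPM for Klrb1c to 2.18 TPM for Ccl5. In Dchs1 WT liver they ran from 0.111 TPM for Prf1 to 1.92 TPM for Ccl5. The chemokine was therefore the most abundant of the 10 in these 3 tissues, where Gzma lost the lead it had in lung. Kidney against heart, 8 markers were higher and Gzma was lower in both lines (-0.58 ± 0.218 log2, adjusted p = 0.0103 by edgeR in the Dchs1 line), while Cd4 passed in neither. Higher in kidney were 44.9% of all genes in Dchs1 mice and 45.9% in Fat4 mice. The Gzma difference rests on the scaling: on log2(TPM + 0.1) it was -0.02 ± 0.174 in Dchs1 mice and 0.06 ± 0.178 in Fat4 mice, with neither passing limma's test. Cd4 depends on it too, and on that scale was higher in kidney in both lines (0.33 ± 0.106 in Dchs1 mice, adjusted p = 0.00326 by limma, and 0.41 ± 0.0996 in Fat4 mice, adjusted p = 7.74e-05). Some hearts also held transcripts of the 5 lung-defining genes, which summed to over 10 TPM in 8 of 30 Dchs1 WT hearts (14.6 to 426 TPM) and in 9 of 30 Fat4 WT hearts (16.8 to 907 TPM). Without those hearts, a choice made after seeing the data, Gzma no longer passed edgeR's test between kidney and heart, with -0.41 ± 0.243 in Dchs1 mice (adjusted p = 0.103) and -0.39 ± 0.256 in Fat4 mice (adjusted p = 0.143). Liver against heart, 9 markers were higher in each line, all but Gzma in the Dchs1 line and all but Prf1 in the Fat4 line. The share of all genes higher in liver was 43.8% in Dchs1 mice and 44.6% in Fat4 mice.

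The order of liver and kidney depended on the marker and, for some, on the scaling. Klrb1c, the NK receptor, was higher in liver by 0.85 ± 0.201 log2 in Dchs1 mice and 1.31 ± 0.183 in Fat4 mice. Il2rb was higher by 0.64 ± 0.132 and 0.97 ± 0.131 taking the lines in that order, Gzma by 0.69 ± 0.223 and 0.98 ± 0.213, and Cd4 by 0.75 ± 0.128 and 0.77 ± 0.123. Cd8a went the other way, lower in liver with a log2 difference of -0.99 ± 0.164 in Dchs1 mice and -0.58 ± 0.158 in Fat4 mice, and Prf1 was lower as well, with -0.65 ± 0.221 and -0.52 ± 0.232. Each of these passed edgeR's test, and Cd3e passed in the Fat4 line alone, where it was higher in liver by 0.41 ± 0.153. Cd3g, Nkg7 and Ccl5 passed in neither line. This made 6 of 10 markers called in the Dchs1 line and 7 of 10 in the Fat4 line, against 87.2% and 89.6% of all genes in either direction. On log2(TPM + 0.1), limma kept the direction of Klrb1c, Cd8a and Prf1 and called each in both lines, but Gzma passed in neither line and Cd4 and Il2rb in the Fat4 line alone. On that scale Cd3e was lower in liver in the Dchs1 line (-0.69 ± 0.139) and reversed sign in the Fat4 line, without passing (-0.07 ± 0.125), and Ccl5 was lower in liver in both lines (-0.45 ± 0.160 in the Dchs1 line, -0.78 ± 0.157 in the Fat4 line). Cd3g was then called lower in liver in the Dchs1 line (-0.29 ± 0.133, adjusted p = 0.0382 by limma) and Nkg7 in the Fat4 line (-0.40 ± 0.182, adjusted p = 0.0359).

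Among the 30 wild-type lungs of a line the markers varied together, which was measured as the correlation of log2(TPM + 0.1) between the 45 pairs of markers, with 100000 two-sided permutations and Benjamini-Hochberg adjustment over the 90 pairs of both lines. All 45 pairs passed in the Fat4 line, with a median Pearson r of 0.73 and a median Spearman rho of 0.75. In the Dchs1 line 39 passed, with a median r of 0.61 and a median rho of 0.51. These counts are by Pearson's r, and by Spearman's rho 44 pairs passed in the Fat4 line and 32 in the Dchs1 line. The granule, NK and cytokine genes were the tightest group: their 15 pairs had a median r of 0.73 in Dchs1 mice and 0.87 in Fat4 mice. Nkg7 and Ccl5 formed the closest pair in the Dchs1 line (r = 0.92, rho = 0.92, adjusted permutation p = 2.9e-05) and Prf1 and Klrb1c in the Fat4 line (r = 0.92, rho = 0.92, adjusted permutation p = 2.9e-05). Both p-values rest on the smallest value that the permutations can give. Cd3e went with Cd8a at r = 0.83 in Dchs1 mice and 0.88 in Fat4 mice. The lowest r of the 45 pairs was that of Cd4 with Nkg7 in Dchs1 mice (r = 0.12) and of Cd4 with Gzma in Fat4 mice (r = 0.38). Cd3g with Prf1 was also low, at r = 0.32 in Dchs1 mice and 0.44 in Fat4 mice. Without the 2 libraries farthest from the median of the first gene, the median r over the 45 pairs was 0.42 in Dchs1 mice and 0.69 in Fat4 mice, so in the Dchs1 line much of the relation rests on those libraries. Nkg7 and Ccl5 remained at 0.92 without them. Within the longest stretch of library numbers in the Dchs1 line, the stand-in for a batch, 43 of the 45 pairs passed by Pearson's r. Fewer passed there by Spearman's rho. Those that did not included Cd3e with Cd3g (rho = 0.30, unadjusted permutation p = 0.157), Cd3e with Gzma (rho = 0.28, p = 0.179) and Cd3g with Cd4 (rho = 0.28, p = 0.187). In Dchs1 WT lung 1 library held the lowest value of 9 of the 10 markers. The points of each correlation share libraries, depth and scaling. The share of pairs of all expressed genes that would pass was not computed. The counts therefore do not set these markers apart from other genes.

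**Figure D2:**
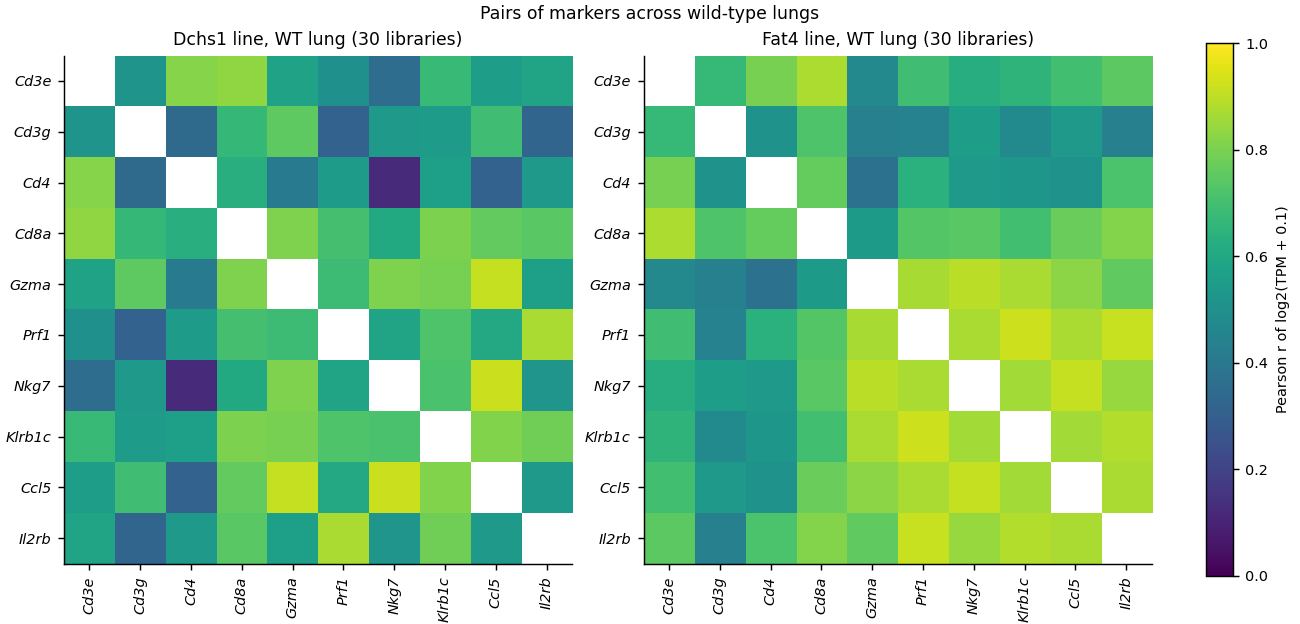
Pearson r of log2(TPM + 0.1) for every pair of markers over the 30 wild-type lungs of the Dchs1 line (left) and of the Fat4 line (right), on a colour scale from 0 to 1. The block from Gzma to Il2rb is brightest in the Fat4 line, and the darkest cell is Cd4 with Nkg7 in the Dchs1 line and Cd4 with Gzma in the Fat4 line.

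Among 14326 genes with a mean of at least 1 TPM, ranked by Pearson r over the 60 wild-type lungs after centring within line and leaving out the 10 themselves, 1 or 2 genes were taken as most like each marker. Gzmb, another granzyme, was closest to Gzma (r = 0.86) and to Prf1 (r = 0.87), and Ncr1, an activating NK receptor, was second for Prf1 at r = 0.87. Klrb1c was most like Klrk1, which encodes the NK receptor NKG2D (r = 0.88), and next most like Klra8, a Ly49 receptor (r = 0.84). Cd8a was most like Lck, the kinase that starts T cell receptor signalling (r = 0.90). Cd3e was most like Il21r, a cytokine receptor (r = 0.90), and both Nkg7 (r = 0.85) and Ccl5 (r = 0.86) were most like Ctsw, a cathepsin of cytotoxic cells. Cd3g was most like Ptprcap, which encodes a CD45-associated protein (r = 0.80). Il2rb was most like Shisa5 (r = 0.91), and Cd4 was most like Sh3kbp1, an adaptor protein of many cell types (r = 0.82). These are descriptions and carry no p.

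In lung of the Dchs1 line, all 10 markers were lower in Het. Log2 fold changes ran from -1.02 for Prf1 to -0.54 for Cd3g and Cd8a, which put Het at 49.2 to 68.6% of the WT level. Their median log2 fold change was -0.73, beside 0.01 for all genes tested. Of the 15069 genes tested in this tissue 10.4% were lower and 9.60% higher in Het. Every marker's groups overlapped, and the Het libraries under the median of WT numbered 25 to 28. In the following values, CPM stands for read counts relative to library size after TMM scaling within a tissue, n is 30 per group, and adjusted p comes from edgeR over all genes tested.

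**Figure D3:**
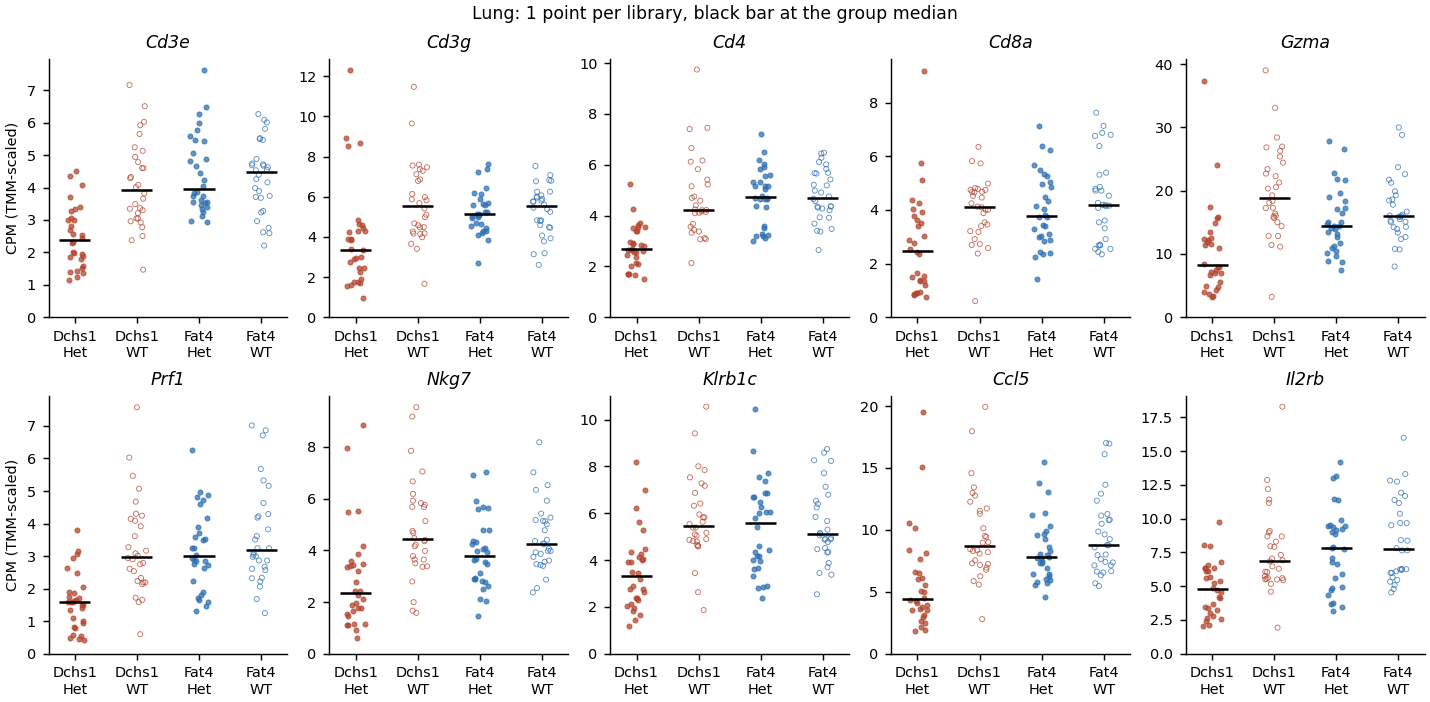
CPM (TMM-scaled within each line, linear axis from 0) of each marker in lung, with 1 point per library in Dchs1 Het, Dchs1 WT, Fat4 Het and Fat4 WT, and a black bar at each median. The Dchs1 Het bar is below the Dchs1 WT bar in every panel, and the ranges overlap.

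Of the T cell receptor genes, Cd3e ran from 1.15 to 4.51 CPM with a median of 2.37 in Dchs1 Het lungs, against 1.47 to 7.16 CPM with a median of 3.92 in WT lungs. No Het library reached the 11 highest WT libraries, and 5 Het libraries lay under the lowest WT one. Its log2 fold change was -0.71 ± 0.130 (SE, adjusted p = 3.07e-05 by edgeR). Cd3g ran from 0.974 to 12.3 CPM with a median of 3.37 in Het, against 1.67 to 11.5 CPM with a median of 5.55 in WT. The highest library of all was a Het, while 3 Het libraries lay under the lowest WT one. The fitted change of Cd3g was -0.54 ± 0.174 (adjusted p = 0.0189).

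Both coreceptors were lower. Cd4 ran from 1.52 to 5.23 CPM with a median of 2.67 in Dchs1 Het lungs, against 2.13 to 9.75 CPM with a median of 4.23 in WT lungs. As many as 28 Het libraries were under the median of WT and 8 under its whole range, and Cd4 had the smallest adjusted p of the 10, at -0.75 ± 0.115 (adjusted p = 1.22e-06 by edgeR). Cd8a ran from 0.769 to 9.20 CPM with a median of 2.48 in Het, against 0.60 to 6.36 CPM with a median of 4.11 in WT. Its extremes on both sides were against the trend, the lowest library being a WT and the highest a Het. Its change was -0.54 ± 0.188 (adjusted p = 0.0311), the weakest call among the 10.

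Prf1 and Gzma showed the largest falls of the 10. Prf1 ran from 0.425 to 3.81 CPM with a median of 1.60 in Dchs1 Het lungs, against 0.60 to 7.57 CPM with a median of 2.98 in WT lungs. In 10 WT libraries it exceeded every Het library, and its fold change was -1.02 ± 0.182 (adjusted p = 2.08e-05 by edgeR). Gzma ran from 3.20 to 37.3 CPM with a median of 8.19 in Het, against 3.20 to 39.0 CPM with a median of 18.8 in WT. The 2 ranges were nearly the same, yet all but 2 of the Het libraries were under the median of WT, and the fold change was -0.92 ± 0.186 (adjusted p = 0.000148). Nkg7 ran from 0.626 to 8.83 CPM with a median of 2.36 in Het, against 1.58 to 9.54 CPM with a median of 4.44 in WT. With 8 Het libraries below the whole WT range, it changed by -0.74 ± 0.191 (adjusted p = 0.00279).

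The NK receptor and the cytokine genes moved by like amounts. Klrb1c ran from 1.18 to 8.18 CPM with a median of 3.33 in Dchs1 Het lungs, against 1.87 to 10.6 CPM with a median of 5.47 in WT lungs, a change of -0.71 ± 0.146 (adjusted p = 0.000182 by edgeR). Its reads are uncertain, since close relatives of the Klrb1 family may share them. Ccl5 ran from 1.81 to 19.5 CPM with a median of 4.45 in Het, against 2.80 to 19.9 CPM with a median of 8.71 in WT, a change of -0.74 ± 0.180 (adjusted p = 0.00144). Il2rb ran from 2.07 to 9.77 CPM with a median of 4.77 in Het, against 1.93 to 18.3 CPM with a median of 6.88 in WT, a change of -0.64 ± 0.145 (adjusted p = 0.000638). In 5 WT libraries Il2rb exceeded every Het library, while the lowest library was also a WT. In Dchs1 Het lung a single library held the highest value of 6 of the 10 markers and a single library the lowest of 5.

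Some markers were more uneven among Dchs1 Het lungs. The coefficient of variation of CPM was 65.4% in Het and 34.5% in WT for Cd3g, 68.1% in Het and 29.4% in WT for Cd8a, and 67.4% in Het and 36.1% in WT for Gzma. Nkg7 had 68.0% in Het and 40.3% in WT, and Ccl5 had 67.96% in Het and 37.8% in WT. Cd4 and Il2rb were as even in both groups, with 30.3% in Het and 34.0% in WT for Cd4 and 39.96% in Het and 40.9% in WT for Il2rb. Cd3e had 37.8% in Het and 32.5% in WT. These spreads were not tested against each other. They pool 2 stretches of library numbers that differed in level. Cd3g had medians of 2.99 and 6.57 CPM in the first and second stretch in Het, and of 4.83 and 7.54 CPM in WT. Of the Dchs1 lungs that correlated poorly with the rest, 3 were Het and 1 was WT.

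All 10 lung calls held under DESeq2, its size factors in edgeR, limma on TPM, no filter, the stretch covariate, the longest stretch alone and without the libraries that stand apart. Without those libraries, log2 fold changes ran from -0.999 to -0.606. The second stretch of library numbers, with 6 Het and 6 WT lungs, also had the lower median in Het for each of the 10, with Het to WT ratios of medians from 0.494 for Gzma to 0.872 for Cd3g.

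Other genes of T and NK cells were lower in Dchs1 Het lungs as well. Of 20 further cytotoxic and NK cell genes tested 18 were lower and none higher, with a median log2 fold change of -0.74. Ncr1 (NKp46, an activating receptor) changed by -1.11 ± 0.171 (edgeR adjusted p = 1.35e-06), Klre1 by -0.99 ± 0.157 and Klrk1 (NKG2D) by -0.78 ± 0.123. Of 22 further T cell genes 16 were lower and none higher, with a median of -0.45. Among them the surface protein Thy1 changed by -0.50 ± 0.085 and Cd6, a costimulatory receptor, by -0.85 ± 0.162. Of 20 cytokine and chemokine partners 13 were lower and 1 higher, with a median of -0.32. Those lower included Il2rg, the common gamma chain that pairs with Il2rb (-0.42 ± 0.072), and Il7, a survival cytokine of T cells (-0.43 ± 0.088). These counts are read against 10.4% of all genes lower.

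Markers of other blood cells in the same lungs are read against 10.4% of all genes lower and 9.60% higher. B and plasma cell genes were lower for 6 of 10, with Cr2 at -1.15 ± 0.230 and Ms4a1 (CD20) at -1.01 ± 0.224. Their summed level ran from 32.7 to 284 TPM in Dchs1 Het, against 29.4 to 453 TPM in WT. Dendritic cell genes were lower for 5 of 8 and pan-leukocyte genes for 5 of 10, with Ptprc (CD45), of the second list, at -0.50 ± 0.120. Summed pan-leukocyte levels ran from 289 to 764 TPM in Het, against 303 to 860 TPM in WT, and dendritic ones from 17.4 to 37.7 TPM in Het, against 19.8 to 46.6 TPM in WT. Neutrophil genes went the other way, with 3 of 8 higher and none lower: Retnlg at 1.23 ± 0.174, the collagenase Mmp8 at 1.56 ± 0.221 and Ly6g at 0.55 ± 0.190. Their summed level ran from 205 to 1758 TPM in Het, against 384 to 1536 TPM in WT, and Camp was at a median of 0 reads in both groups. Macrophage genes were split, with 2 of 11 lower and 1 higher (summed 351 to 598 TPM in Het, against 321 to 552 TPM in WT), and Clec4f was at a median of 0 reads. Platelet genes Ppbp (-0.64 ± 0.15) and Gp9 (-0.45 ± 0.141) were the 2 lower of 10 erythroid and platelet genes, whose sum ran from 8682 to 36258 TPM in Het, against 8014 to 42939 TPM in WT. Of the lung-defining genes 1 of 5 was higher, Sftpa1 at 0.21 ± 0.056. No list was tested against the shares over all genes, so the counts do not show that any of these lists was spared. The part of these other cells in the result was not tested.

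**Figure D4:**
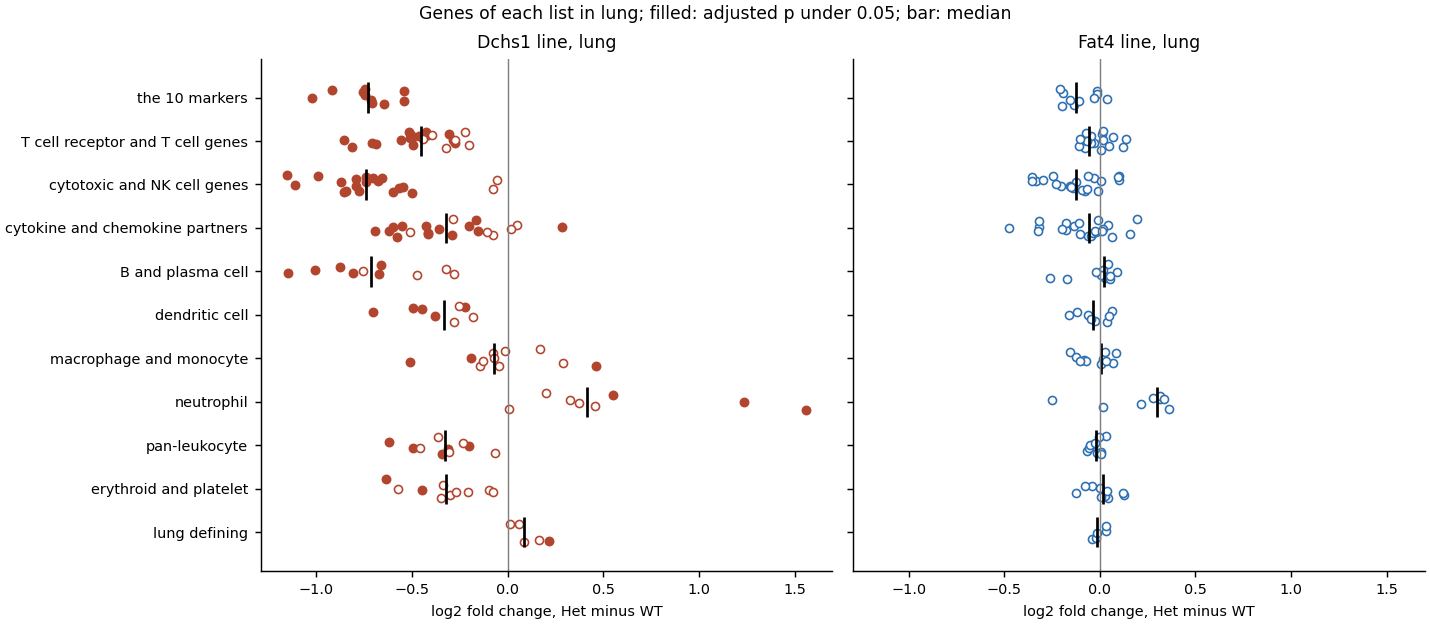
Log2 fold change (Het minus WT) in lung of every tested gene of each list, in the Dchs1 line (left) and the Fat4 line (right), filled where the adjusted p was under 0.05, with a black bar at the list's median. Dchs1 lymphocyte lists lie left of 0 and the neutrophil list right of it, and no gene of these lists is filled in the Fat4 line.

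In Fat4 lung none of the 10 markers passed the test. Fold changes ran from -0.21 ± 0.117 for Nkg7 to 0.04 ± 0.096 for Cd3e, 9 of the 10 below 0, with a median of -0.12 beside -0.00 for all genes. The count was 0 by edgeR, DESeq2 and limma, and at an unadjusted p under 0.05 it was 0 by edgeR, 0 by DESeq2 and 1 by limma; of all genes, 0.0259% were lower by edgeR. Prf1 ran from 1.30 to 6.26 CPM with a median of 2.998 in Fat4 Het lungs, against 1.25 to 7.01 CPM with a median of 3.17 in WT lungs. Gzma ran from 7.39 to 27.8 CPM with a median of 14.4 in Het, against 8.01 to 29.98 CPM with a median of 15.9 in WT. Cd4 ran from 2.99 to 7.23 CPM with a median of 4.74 in Het, against 2.64 to 6.47 CPM with a median of 4.71 in WT. Both groups covered nearly the same range for each of these genes. Of 22 T cell genes, 21 cytotoxic and NK cell genes and 22 partners tested there, none passed.

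The lung effects of the lines were compared by their interaction. For 5 markers the difference passed edgeR's test: Prf1 (0.84 ± 0.234, adjusted p = 0.0187), Gzma (0.77 ± 0.217, adjusted p = 0.0201), Cd3e (0.75 ± 0.161, adjusted p = 0.00174), Cd4 (0.75 ± 0.142, adjusted p = 0.000561) and Klrb1c (0.69 ± 0.190, adjusted p = 0.0177). Each is the log2 fold change in Fat4 Het minus that in Dchs1 Het. These 5 of 10 stand beside 5.0% of all genes. For Cd3g, Cd8a, Nkg7, Ccl5 and Il2rb the difference was between 0.41 and 0.55 and did not pass, with adjusted p from 0.086 to 0.371. By limma on log2(TPM + 1) the count was 6, beside 3.26% of all genes. Prf1 then no longer passed (0.55 ± 0.177, adjusted p = 0.0605 by limma) while Cd3g (0.62 ± 0.151, adjusted p = 0.0102) and Ccl5 (0.70 ± 0.195, adjusted p = 0.0244) did. The lines were made into separate tables, and whether they were raised or sequenced together is not given in the labels. Fat4 lungs had more reads than Dchs1 lungs, and the part of depth in these differences was not tested.

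In kidney of the Dchs1 line, 5 markers had enough reads to pass the filter, and all 5 were lower in Het, where 23.8% of all genes were lower. Cd4 ran from 0.266 to 1.01 CPM with a median of 0.504 in Het, against 0.308 to 1.56 CPM with a median of 0.816 in WT, a change of -0.58 ± 0.131 (adjusted p = 0.000210 by edgeR). Cd3e had a median of 0.421 CPM in Het and 0.645 CPM in WT, a change of -0.53 ± 0.153 (adjusted p = 0.00332). Both kept groups that overlapped, although 26 Het libraries for Cd4 and 24 for Cd3e were under the median of WT. Ccl5 changed by -0.48 ± 0.140 (adjusted p = 0.00387), Il2rb by -0.40 ± 0.118 (adjusted p = 0.00368) and Cd8a by -0.33 ± 0.124 (adjusted p = 0.0255). Within the longest stretch of library numbers Cd3e (-0.42 ± 0.184, adjusted p = 0.0553) and Cd8a (-0.24 ± 0.136, adjusted p = 0.138) no longer passed. With no filter on low counts, 9 of the 10 were lower, against 16.4% of all genes. Cd3g, with median reads of 6 per library in Het and 11 in WT, then changed most, by -0.88 ± 0.168 (adjusted p = 2.16e-05), and Klrb1c alone did not pass (-0.18 ± 0.211).

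Lists of other leukocyte genes in Dchs1 Het kidney are read against 23.8% of all genes lower and 23.4% higher. T cell genes were lower for 6 of 11 tested, including Lck (-0.49 ± 0.098), and partners for 11 of 16, including Il2rg (-0.68 ± 0.084) and Cxcl9, a chemokine that attracts T cells (-0.97 ± 0.148). Dendritic cell genes were lower for 2 of 6, macrophage genes lower for 4 and higher for 1 of 10, and neutrophil genes changed for 0 of 4. Of 4 cytotoxic genes Klrk1 was lower (-0.59 ± 0.131) and Eomes, a T-box factor, higher (0.44 ± 0.15). Pan-leukocyte genes were lower for 8 of 10, their sum running from 36.6 to 65.7 TPM in Het, against 37.0 to 70.2 TPM in WT. B and plasma cell genes were lower for 4 of 5, with sums from 2.84 to 6.67 TPM in Het, against 3.35 to 7.88 TPM in WT. Kidney-defining genes changed as well, with 3 of 5 lower and 1 higher, and a summed median of 29461 TPM in Het, against 48527 TPM in WT. The part of these shifts in the markers' values was not tested.

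In liver and heart of the Dchs1 line few markers had reads enough for a test. In liver 3 were tested and Cd4 was lower, against 25.4% of all genes. It ran from 0.180 to 1.06 CPM with a median of 0.563 in Het, against 0.351 to 1.46 CPM with a median of 0.825 in WT, a change of -0.51 ± 0.143 (adjusted p = 0.00224 by edgeR). Il2rb (-0.12 ± 0.107) and Ccl5 (-0.13 ± 0.185) did not pass. With no filter, the 2 CD3 chains went opposite ways in liver: Cd3g was lower (-0.50 ± 0.165, adjusted p = 0.0142) and Cd3e higher (0.47 ± 0.173, adjusted p = 0.0282). Both rest on few reads, with medians per library of 5 in Het and 8 in WT for Cd3g, and of 9 in Het and 7 in WT for Cd3e. Then 2 of 10 markers were lower, against 16.3% of all genes, and 1 higher, against 17.2%.

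In heart Cd4 was the 1 marker tested, and it did not pass (-0.31 ± 0.154, p = 0.0471, adjusted p = 0.0857 by edgeR), where 24.1% of all genes were lower. It ran from 0.0994 to 1.57 CPM with a median of 0.433 in Het, against 0.288 to 0.954 CPM with a median of 0.601 in WT, so the highest and the lowest library were both Het. No marker was called by edgeR, and 1 had an unadjusted p under 0.05. DESeq2, which tested all 10, called 2 as lower, against 20.6% of all genes lower by DESeq2. With no filter edgeR also called 2 of 10, Cd3g (-0.76 ± 0.239, adjusted p = 0.00951) and Gzma (-0.86 ± 0.215, adjusted p = 0.00100), against 16.5% of all genes. Gzma had a median of 4 reads per library in Het and 7 in WT. Lung-defining genes summed to over 10 TPM in 5 Het hearts (39.4 to 261 TPM) and 8 WT hearts (14.6 to 426 TPM) of this line. Without those hearts, which left 25 Het and 22 WT, Cd4 passed the filtered test (-0.45 ± 0.158, adjusted p = 0.0171 by edgeR). With no filter and without them, Cd3g (-0.85 ± 0.278, adjusted p = 0.0147) and Cd4 (-0.45 ± 0.159, adjusted p = 0.0252) were lower, and Gzma no longer passed (-0.58 ± 0.232, adjusted p = 0.0515).

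**Figure D5:**
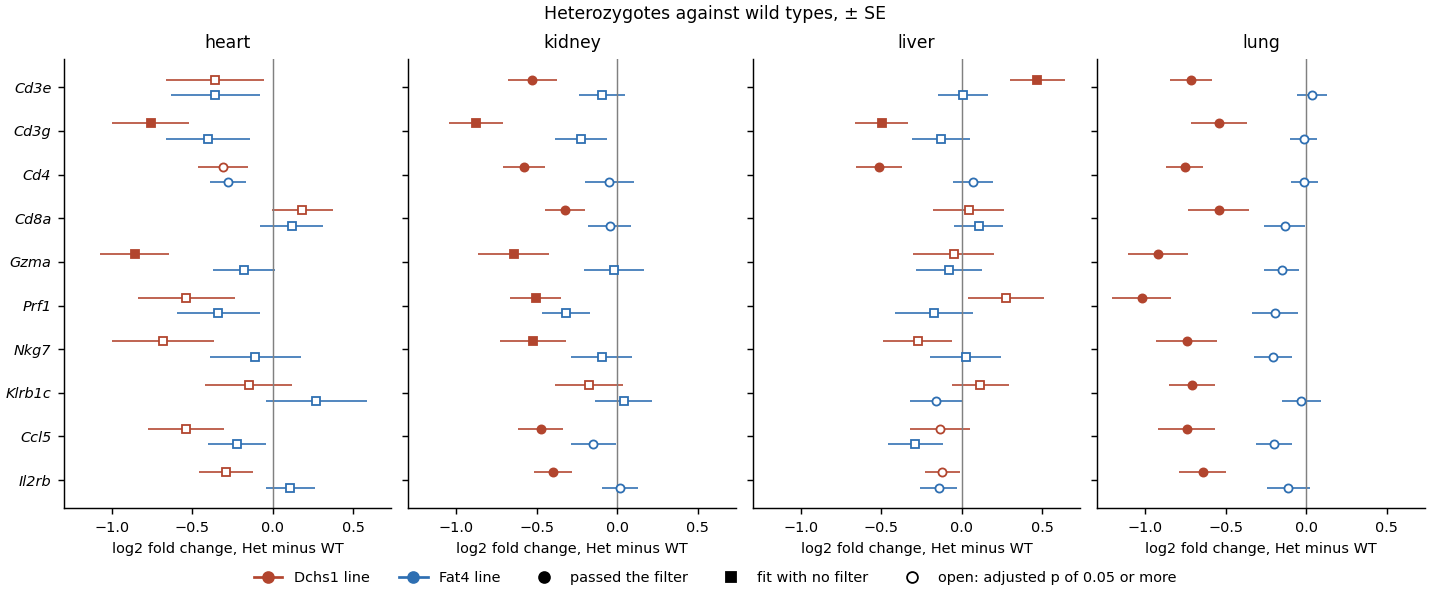
Log2 fold change (Het minus WT) ± SE of each marker in heart, kidney, liver and lung, for the Dchs1 line (red) and the Fat4 line (blue); circles passed the filter on low counts, squares come from the fit with no filter, and filled symbols had an adjusted p under 0.05. Filled symbols are all of the Dchs1 line, 10 of them in lung, and Cd3e in liver is the one to the right of 0.

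No marker was called in heart, kidney or liver of the Fat4 line. In heart, where Cd4 was the 1 marker tested, its log2 fold change was -0.28 ± 0.113 (p = 0.0167, adjusted p = 0.178 by edgeR), against 0.628% of all genes lower. Lung-defining genes summed to over 10 TPM in 3 Het hearts (14.3 to 347 TPM) and 9 WT hearts (16.8 to 907 TPM), and without them Cd4 was at -0.37 ± 0.132 (adjusted p = 0.249). In kidney 4 were tested, with log2 fold changes from -0.15 ± 0.141 for Ccl5 to 0.02 ± 0.113 for Il2rb, against 7.87% of all genes lower. In liver 3 were tested, with log2 fold changes from -0.16 ± 0.164 for Klrb1c to 0.07 ± 0.125 for Cd4, against 3.51%. At an unadjusted p under 0.05 edgeR gave 1 marker in heart, 0 in kidney and 0 in liver. DESeq2 called 0 of 10 in kidney and 0 of 10 in liver, with 1 and 0 at an unadjusted p under 0.05, and gave no adjusted p for the markers in heart, where 1 had an unadjusted p under 0.05. Fitted with no filter, none of the 10 passed in any of the 3 tissues, and among the kidney values that of Prf1 was farthest from 0, at -0.32 ± 0.151 (adjusted p = 0.175).

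Between the lines, the kidney effect differed for 3 of 6 markers tested, Cd3g (0.64 ± 0.234, edgeR adjusted p = 0.0246), Cd4 (0.52 ± 0.204, adjusted p = 0.0393) and Il2rb (0.41 ± 0.164, adjusted p = 0.0438), against 33.5% of all genes. In liver it differed for Cd4 (0.56 ± 0.191, adjusted p = 0.0213), 1 of 5 tested, against 23.6%. In heart it differed for 0 of 2 by edgeR, none with an unadjusted p under 0.05, against 25.5%; limma on TPM tested none there. Cd3e, Cd4, Il2rb and Ccl5 were the markers tested between the lines in kidney, liver and lung alike. The other markers did not pass the filter on low counts in kidney, liver or both. Of those tested in all of these tissues Cd4 alone passed in each, with the Dchs1 fold change the lower each time. In liver Cd3e (-0.47 ± 0.233, adjusted p = 0.139 by edgeR), Klrb1c (-0.28 ± 0.241), Ccl5 (-0.17 ± 0.253) and Il2rb (-0.04 ± 0.157) went the other way and did not pass.

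Whether the Het effect differed between the 4 tissues was tested within each line. In the Dchs1 line 4 of 10 markers passed, Cd3e (edgeR adjusted p = 4.11e-05), Prf1 (adjusted p = 0.000814), Klrb1c (adjusted p = 0.0110) and Il2rb (adjusted p = 0.0427), against 52.2% of all genes. For Cd4, lower in lung, kidney and liver of this line, the difference between tissues did not pass (adjusted p = 0.201). On log2(TPM + 1), where changes of low genes shrink, limma called all 10, beside 56.7% of all genes by limma. In the Fat4 line no marker passed edgeR's test, beside 7.13% of all genes, and none had an unadjusted p under 0.05. Limma called 0, beside 9.05% of all genes.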

How the data were processed

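Per the labels' protocols, poly(A) RNA was made into strand-specific KAPA libraries and sequenced single-end; the protocols conflict on read length. Demultiplexing with bcl2fastq 2.17, FastQC and the build GRCm38 are named in the submitters' processing notes; for the aligner, the counter and the use of strand, the entry is "not given in the sources used here". What the authors deposited is estimated counts per gene and TPM for each line. Of the deposited estimated counts 15.3% (Dchs1) and 15.5% (Fat4) were not whole, so reads of related genes such as the Klrb1 family can be divided. All columns matched a library by name (0 unmatched), and 24375 of 24475 identifiers matched a symbol. The lowest chi-square per gene of 6931 within-group pairs of libraries was 3.48, so no library was taken as a duplicate.

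Tests used edgeR 4.0.16 (R 4.3.3) on counts rounded to whole numbers, with TMM, filterByExpr (minimum count 10, minimum total 15), quasi-likelihood F test, Benjamini-Hochberg over all genes tested, threshold 0.05. The SE was taken as the absolute log2 fold change divided by the root of F. Each Het against WT comparison used its own 2 groups; tissues were compared within a line. Library numbers separated by gaps larger than 3 defined stretches. Alternatives were DESeq2 1.42.0, its size factors, no filter, limma 3.58.1 on log2(TPM + 1) with 1 TPM in at least 20 libraries, the stretch as covariate, the longest stretch alone, and leaving out libraries whose median Spearman correlation lay over 5 median absolute deviations below the median. Leaving out hearts whose 5 lung-defining genes summed to over 10 TPM was added after seeing the data. The script was tested on simulated counts.

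All 10 markers, the targeted genes, the 3 genes of each of 13 lists with the smallest p among those called, and the genes most like each marker were named, except for some that are not reported here; 151 of 154 list entries were in the tables. Members and lists were chosen with earlier results of these data known.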

Additional observations from a re-analysis of the deposited data

Results flagged for a closer look

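The Het effect differed between the lines by the interaction test of edgeR, with the log2 fold change in Fat4 Het minus that in Dchs1 Het, for 5 markers in lung: Prf1 by 0.84, Gzma by 0.77, Cd3e by 0.75, Cd4 by 0.75 and Klrb1c by 0.69. These 5 of 10 stand beside 5.0% of all genes, and Prf1 did not pass by limma on log2(TPM + 1) (adjusted p = 0.0605). In kidney it differed for Cd3g by 0.64, Cd4 by 0.52 and Il2rb by 0.41, which is 3 of 6 beside 33.5% of all genes. In liver it differed for Cd4 by 0.56, 1 of 5 beside 23.6%. In all 9 of these called differences the Dchs1 fold change was the lower one. The uncalled differences in liver went the other way: Cd3e by -0.47 (adjusted p = 0.139 by edgeR), Klrb1c by -0.28, Ccl5 by -0.17 and Il2rb by -0.04. Between tissues of the Dchs1 line the effect differed for Cd3e (edgeR adjusted p = 4.11e-05), Prf1 (adjusted p = 0.000814), Klrb1c (adjusted p = 0.0110) and Il2rb (adjusted p = 0.0427), 4 of 10 beside 52.2% of all genes, a share below that of all genes. No explanation of these differences was tested.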

How the results depend on the processing

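The 10 lung calls of the Dchs1 line held under each of the 7 alternatives. With low counts admitted, by DESeq2 and by edgeR with no filter, the lower markers of the Dchs1 line numbered 2 in heart (0 in the main test), 9 in kidney (5) and 2 in liver (1), and 1 was higher in liver (0), since all 10 were then tested. By DESeq2, 20.6% of all genes were lower in Dchs1 heart, 19.5% in kidney and 19.7% in liver, where 21.8% were higher. Limma on log2(TPM + 1) tested 1 marker in Dchs1 kidney and called 1, and tested 1 in Dchs1 liver and called 0. It called 0 of 1 in the kidney and 0 of 2 in the liver comparison of lines. In the lung comparison of lines it called 6 in place of 5, beside 3.26% of all genes. Prf1 was lost there (adjusted p = 0.0605 by limma) and Cd3g and Ccl5 were gained. Between tissues of the Dchs1 line it called 10 in place of 4, beside 56.7% of all genes. Without hearts over 10 TPM of lung-defining genes, an alternative chosen after seeing the data, 1 marker was lower in Dchs1 heart, and 2 with no filter as well. The longest stretch left 3 lower markers in Dchs1 kidney. Of uncalled Het against WT values, 4 changed sign. In the longest stretch these were Ccl5 in Dchs1 liver (0.0799) and Il2rb in Fat4 kidney (-0.0308). Without the library that stands apart they were Cd3g (0.00528) and Cd4 (0.00238) in Fat4 lung. In the comparison of lines the uncalled Ccl5 difference in liver went from -0.17 by edgeR to 0.0079 by limma. Over all genes, Dchs1 lung had 3018 calls, but 4711 with the stretch covariate and 4623 in the longest stretch. Fat4 heart had 211, against 337 by DESeq2, 95 with no filter, 132 by limma, 351 with the covariate, 117 in the longest stretch and 5 without the hearts over 10 TPM. Fat4 kidney had 2393 and 1453 by limma, Fat4 liver 892 and 1481 without libraries apart, and Fat4 lung 21, against 58 by DESeq2, 10 by limma and 9 without the library apart. On TPM the split of calls tilted: Dchs1 kidney had 4968 higher and 1358 lower (3304 and 3367 by edgeR), Dchs1 lung 587 higher and 1664 lower (1447 and 1571), Fat4 liver 103 and 663 (454 and 438). Except for those named, the causes were not tested. No paired analysis was possible because no library number occurs in more than 1 group. Outside lung the typical library held few reads of most markers, which limits what could be seen.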
